A study of Mus musculus with 24 samples.

Results

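Heat shock proteins and their J-domain partners were followed through polyA RNA of 13 mouse hearts. The members were all genes of the deposited polyA table whose symbol begins with Hsp or Dnaj, except Hspg2, which encodes a proteoglycan. This gave 74 of 23998 genes, of which 66 had a mean of at least 1 FPKM over the 13 libraries and were tested, among 12980 such genes. FPKM scales the fragments of a gene to transcript length and to the mapped fragments of the library, so it can be compared between genes of different length. The hearts came from CD1 mice transgenic for human MYL2, the regulatory light chain of cardiac myosin, and were taken at 4 months of age. The mutant transgenic hearts comprised 4 libraries labelled shRNA (replicates 5 to 8), from mice given the adeno-associated virus AAV9 with the M7.8L shRNA through the jugular vein at 3 days of age, 3 libraries from mice given a control AAV9 without that shRNA (replicates 1 to 3), and 3 libraries from mice with no virus in their label (replicates 9 to 11). The wild-type group was 3 hearts of mice carrying the normal human allele, given the control virus (replicates 2 to 4). All mice kept their own Myl2 gene. Since the labels give every mouse the same genotype entry, genotype here follows the sample names, and the sources do not name the promoter of the transgene. Nothing in the labels says whether hearts of a group came from separate litters, so p-values measure the spread between these hearts.

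Hsp70 proteins hold unfolded stretches of other proteins in a cycle of ATP binding and hydrolysis. J-domain proteins, named Dnaj, bring substrates to Hsp70 and speed its ATPase, and Hsp110 proteins exchange its nucleotide. Hsp90 finishes the folding of kinases, receptors and, with Unc45b, of myosin; Hsp60 with its lid Hsp10 folds proteins inside mitochondria, and the small heat shock proteins, several of them abundant in heart and skeletal muscle, bind unfolding proteins without ATP. Many cytosolic members are induced together by the heat shock factor Hsf1, whereas the members of the endoplasmic reticulum are induced by the unfolded protein response.

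The libraries differed in scale and in several features that touch the results below. FPKM totals ran between 580948 and 1701499, and the median log2 shift of a library over the 13875 genes above 0 everywhere ran between -0.54 and 0.80. Each library was divided by its shift, giving the aligned FPKM used throughout, so every difference below is relative to the median gene. Left as deposited, the median gene itself differed by -0.33 between untreated mutant and wild type, -0.14 between control-virus mutant and wild type, 0.47 between shRNA and control virus, 0.66 between shRNA and untreated mutant, 0.34 between shRNA and wild type, and 0.23 between control-virus and untreated mutants (log2). The row for the human transgene was above 0 only in shRNA replicates 5 to 7, at 229, 420 and 317 FPKM, and at 0 in the other 10 libraries, which goes against the labels of a knockdown, so the group is called by its label. Replicate 8 of the shRNA group stood apart from replicates 5 to 7. The main counts of members passing on that group are given with and without it. Differences of single genes use all libraries unless stated otherwise. By the Y-linked transcript Ddx3y, shRNA replicates 5 to 7 were male and replicate 8 female, all 3 control-virus mutants were female, and the untreated mutants and the wild type each held 2 males and 1 female. The fibroblast markers (6 of 6 tested) summed to between 957 and 1175 aligned FPKM in shRNA replicates 5 to 7, 2349 in replicate 8, 2593 to 2885 in control-virus mutants, 2440 to 2564 in untreated mutants and 879 to 1150 in wild type. Without Myh6, which was listed at 0 in 3 libraries, the 7 cardiomyocyte markers summed to between 59119 and 64557 in shRNA replicates 5 to 7, 36478 in replicate 8, 38076 to 40812 in control-virus mutants, 36897 to 39181 in untreated mutants and 48382 to 50964 in wild type. The macrophage markers (6 of 7 tested) summed to 67.7 to 80.4 in shRNA replicates 5 to 7, 193 in replicate 8, 143 to 205 in control-virus mutants, 161 to 190 in untreated mutants and 79.1 to 85.0 in wild type. The 5 smooth muscle markers summed to 138 to 152 in shRNA replicates 5 to 7, 689 in replicate 8, 833 to 1007 in control-virus mutants, 543 to 994 in untreated mutants and 254 to 380 in wild type. Singly they did not follow this sum. Against wild type 1 was higher and 3 lower in untreated mutants (median log2 difference -0.82). In control-virus mutants 1 was higher and 1 lower (median -0.26). Of 8 immediate early genes tested, 5 were higher in untreated mutants and 6 in control-virus mutants than in wild type. Of all genes 12% and 12.6% were higher. Without replicate 8 the counts were 6 and 6, against 18.9% and 19.8%. In the shRNA libraries 0 were higher than wild type with replicate 8 and 4 without it, against 0.0308% and 3.15% of all genes. The part of cell composition, early gene induction, sex or scale in the differences below was not tested, and in whole hearts fewer cells of a type and less RNA per cell cannot be told apart.

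Among the members, the constitutive cytosolic Hsp90 and the small heat shock proteins of muscle had the highest levels. Hsp90ab1 ran between 1775 and 3592 aligned FPKM over the 13 libraries and Hspb7, a small heat shock protein of heart and blood vessels, between 1815 and 3680. The 8 small members together summed to 4267 to 7037, the 3 Hsp90 members to 2226 to 4408 and the 45 J-domain members to 2163 to 2777. The 11 Hsp70 members summed to 1557 to 2235, the 2 mitochondrial chaperonin genes to 490 to 829, and the 3 Hsp110 members to 184 to 622. The Hsp110 sum set shRNA replicates 5 to 7 apart: it was 184 to 212 in shRNA replicates 5 to 7, 399 in replicate 8, 502 to 521 in control-virus mutants, 490 to 622 in untreated mutants and 366 to 520 in wild type. Below the filter lay Dnajb7, Dnajb8, Dnajb13, Dnajc5b, Dnajc5g, Dnajc6, Dnajc22 and Hspb9, with Dnajb8 listed at 0 in every library. Just inside the filter was Dnajb3 with a mean of 1.25 deposited FPKM and just outside it Hspb9 with 0.409.

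**Figure D1:**
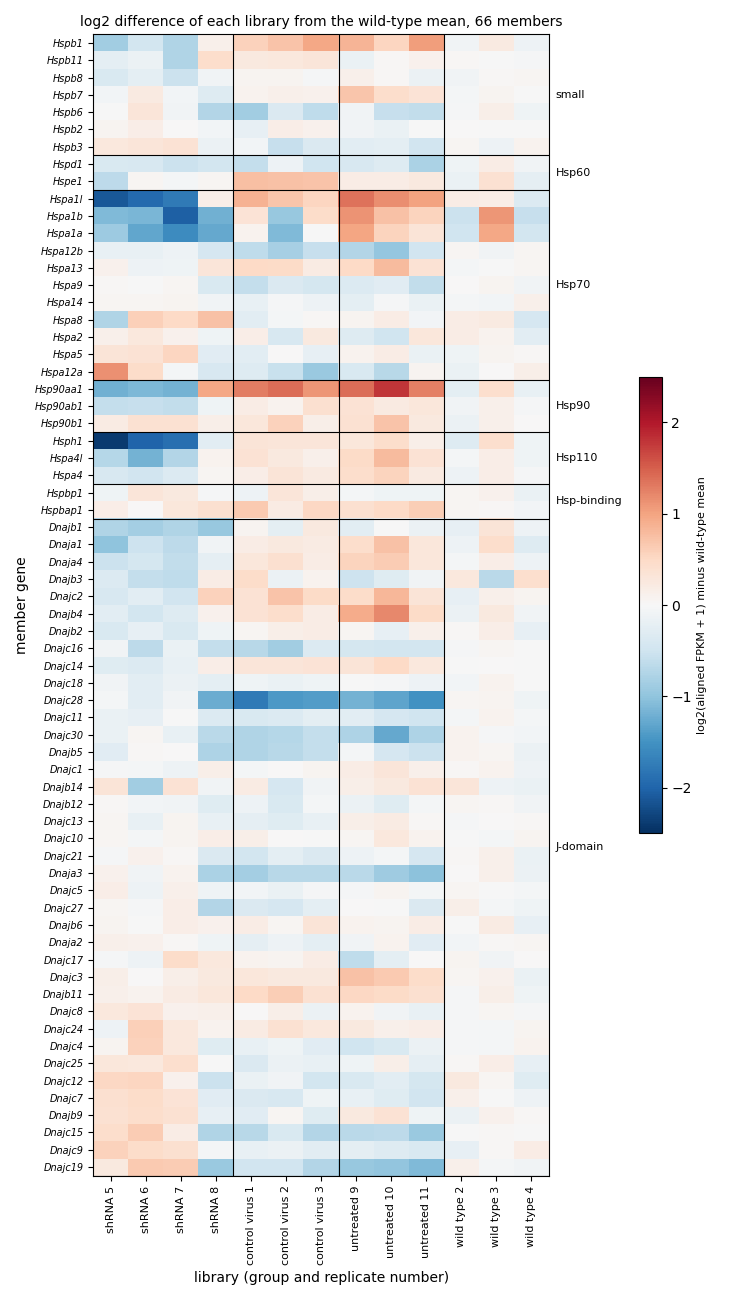
Each row is one of the 66 tested members, grouped by class, and each column a library. Colour gives log2(aligned FPKM + 1) of the library minus the mean of the 3 wild-type libraries, red for higher and blue for lower. In Hsp90aa1, Hspa1l and Hsph1 the shRNA replicates 5 to 7 are blue while replicate 8 is close to wild type or redder. Dnajc28 and Dnaja3 are blue in the untreated and control-virus mutants and in shRNA replicate 8.

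In mutant hearts without virus, set against wild-type hearts, Hsp90aa1, Hspb1, Dnajb4 and Dnaja4 of the cytosol rose, 4 of 8 members of the endoplasmic reticulum lumen rose, and 6 of 9 mitochondrial members fell. By limma over the 4 groups, 16 of 66 members passed at an adjusted p under 0.05, 9 higher and 7 lower, or 24.2%, against 25.8% of all 12980 genes tested. With shRNA replicate 8 left out of the shared estimate of the spread, the same differences gave 28 members, 16 higher and 12 lower, or 42.4% against 39.8% of all genes. Control-virus mutants against wild type gave 11 members, 3 higher and 8 lower, or 16.7% against 24.3%, and 24 without replicate 8, 9 higher and 15 lower, or 36.4% against 39.7% of all genes (19.8% higher and 19.9% lower). All control-virus mutants were female and 2 of the 3 wild-type hearts male. With sex as a covariate 3 members passed in that comparison, 1 higher and 2 lower, and 20 without replicate 8, 11 higher and 9 lower. Of the 12980 genes, 328 passed with the covariate and 3588 without replicate 8 as well. The shares of members were thus close to or below those of all genes, and the median log2 difference over members was -0.01 in untreated mutants and -0.02 in control-virus mutants. Both comparisons use the same 3 wild-type libraries. Ranges that did not overlap were common: untreated mutants and wild type did not overlap in 33 of 66 members and 52.3% of all genes, and control-virus mutants and wild type in 34 and 54.4%. With FPKM as deposited, no member was higher in either comparison, 12 were lower in untreated mutants and 4 in control-virus mutants. On that scale 2690 and 1233 of the 12980 genes passed. Of the calls, 7 of the 16 and 4 of the 11 remained, and none of the called differences changed sign.

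Hsp90aa1, the stress-inducible cytosolic Hsp90, showed the largest rise in mutant hearts among the members. It had 522, 686 and 477 aligned FPKM in untreated mutants and 483, 522 and 427 in control-virus mutants, against 167, 265 and 175 in wild type. Neither mutant group overlapped the wild type. The log2 difference was 1.48 ± 0.46 (SE, adjusted p = 0.0359) in untreated mutants, and 1.26 ± 0.46 (adjusted p = 0.0635) in control-virus mutants, which passed without replicate 8 (adjusted p = 0.000109). Hspb1, the small heat shock protein that binds actin filaments, had 657, 525 and 747 in untreated mutants and 539, 597 and 712 in control-virus mutants, against 342, 421 and 330 in wild type. Its log2 difference was 0.81 ± 0.24 (adjusted p = 0.0291) and 0.75 ± 0.24 (adjusted p = 0.0381), and again no library of either mutant group fell within the wild-type range.

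Of the other cytosolic members, Dnajb4 and Dnaja4 rose in untreated mutants. Dnajb4, a J-domain partner of cytosolic Hsp70, had 411, 497 and 301 aligned FPKM in untreated mutants, 280, 296 and 246 in control-virus mutants and 195, 256 and 203 in wild type. It rose in untreated mutants (log2 0.86 ± 0.19, adjusted p = 0.0128) and not past the threshold in control-virus mutants (0.33 ± 0.19, adjusted p = 0.21). Dnaja4, a cytosolic J-domain protein of the same type as Dnaja1, had 274, 290 and 227 in untreated mutants against 179, 209 and 171 in wild type (log2 0.50 ± 0.14, adjusted p = 0.0237). Hspa1l, an Hsp70 gene next to Hspa1a, had 84.9, 73.5 and 65.7 in untreated mutants and 60.3, 53.1 and 47.6 in control-virus mutants, against 36.8, 36.5 and 25.3 in wild type. Neither group overlapped the wild type, and the differences of 1.17 and 0.70 passed only without replicate 8 (adjusted p = 9.37e-05 and 0.00345). The heat-inducible pair Hspa1a and Hspa1b varied within groups: Hspa1a had 114, 84.8 and 71.4 in untreated mutants, 60.4, 26.0 and 56.6 in control-virus mutants and 40.4, 112 and 41.1 in wild type. Its differences from wild type did not pass in either mutant group, and wild-type replicate 3 lay above 2 of the 3 untreated mutants. The proteins of Hspa1a and Hspa1b are nearly identical, so the split of fragments between them is uncertain.

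Most of the mitochondrial members fell in mutant hearts. Of 9 genes for mitochondrial members, a set drawn up with earlier results of these data known, 6 were lower and 0 higher in untreated mutants (median log2 difference -0.75), where 13.8% of all genes were lower. In control-virus mutants 5 were lower and 1 higher (median -0.56), where 11.7% of all genes were lower. Without replicate 8 the counts were 8 lower and 0 higher in untreated mutants, against 20.8% of all genes lower, and 8 lower and 1 higher in control-virus mutants, against 19.9%. Dnajc28, a little-studied J-domain protein of mitochondria, had the largest fall among all members: 25.6, 23.2 and 20.0 aligned FPKM in untreated mutants and 16.7, 21.4 and 21.8 in control-virus mutants, against 61.2, 62.0 and 54.7 in wild type. No untreated or control-virus mutant library came near the wild-type range. Its log2 difference was -1.34 ± 0.26 (adjusted p = 0.00801) in untreated mutants and -1.53 ± 0.26 (adjusted p = 0.00718) in control-virus mutants.

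Dnajc30, a J-domain protein that serves respiratory complex I, had 50.6, 35.5 and 50.9 aligned FPKM in untreated mutants and 51.1, 52.9 and 56.9 in control-virus mutants, against 92.9, 85.1 and 83.5 in wild type. It fell by 0.94 and by 0.69 on the log2 scale (adjusted p = 0.0074 and 0.0202), with no overlap. Dnaja3, which works with mitochondrial Hsp70, averaged 103 ± 13 in untreated mutants and 111 ± 7.1 in control-virus mutants, against 188 ± 19 in wild type (SD, n = 3 each), with log2 differences of -0.86 and -0.75 (adjusted p = 0.0149 and 0.0233). Dnajc19, a subunit of the import motor of the inner membrane whose loss in people causes a dilated cardiomyopathy, fell by 1.01 in untreated mutants (adjusted p = 0.0355). It differed by -0.56 in control-virus mutants, which passed only without replicate 8 (adjusted p = 0.197 with it and 0.00311 without). Hspa9, the mitochondrial Hsp70, had 590, 609 and 488 in untreated mutants and 495, 580 and 549 in control-virus mutants, against 756, 786 and 698 in wild type. Its groups did not overlap, and the differences were -0.41 (adjusted p = 0.0553) and -0.46 (adjusted p = 0.0392).

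The 2 chaperonin genes did not move together. Hspd1, which encodes Hsp60, had 315, 336 and 242 aligned FPKM in untreated mutants and 277, 383 and 297 in control-virus mutants, against 388, 477 and 396 in wild type, and fell by 0.51 in untreated mutants (adjusted p = 0.0346). Hspe1, which encodes its lid Hsp10, had 306, 306 and 319 in untreated mutants and 452, 446 and 440 in control-virus mutants, against 241, 352 and 230 in wild type, and rose by 0.73 ± 0.19 in control-virus mutants (adjusted p = 0.0231). In control-virus mutants the 3 Hspe1 values thus lay above all wild-type values while the 3 Hspd1 values lay below them. The genes are transcribed away from each other from 1 shared promoter region, shown because the pair differed in direction. The stretch lies between their RefSeq starts on GRCm38.p6 at chr1:55087933-55088147, plus strand, and the capitals mark 18 bases in which 2 heat shock elements of 3 alternating units overlap:
Hspd1-Hspe1: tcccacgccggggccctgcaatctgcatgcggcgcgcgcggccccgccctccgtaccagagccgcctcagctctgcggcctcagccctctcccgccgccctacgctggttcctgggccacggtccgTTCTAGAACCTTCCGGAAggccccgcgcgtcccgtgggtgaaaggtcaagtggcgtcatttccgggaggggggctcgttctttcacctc
The element occurs in the 250 bases before the start of 139 of 27025 genes (0.514%) and of 3 of the 60 members with a sequence (5%), namely Hspd1, Hspe1 and Dnajb6. It was searched as GAA, TTC and GAA or as TTC, GAA and TTC, each with 2 bases of any kind between the units, on both strands, and a match is a description of the sequence only. Both genes have processed pseudogenes, so their counts may share fragments with copies elsewhere.

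**Figure D2:**
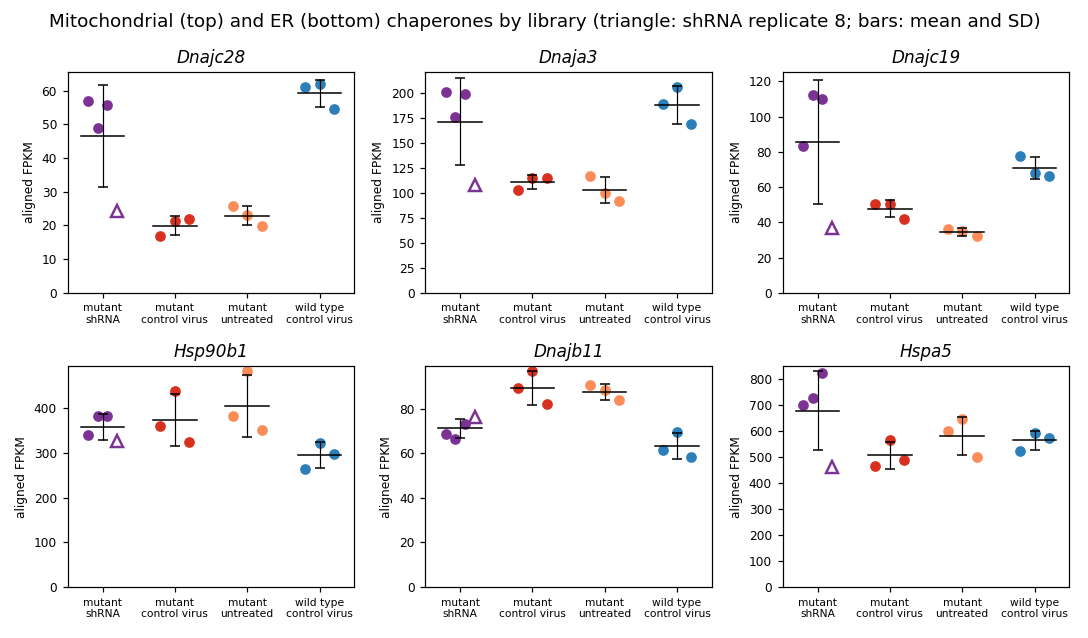
Points are single libraries, with aligned FPKM on the vertical axis from 0 and the 4 groups along the horizontal axis; the upper genes act in mitochondria and the lower ones in the endoplasmic reticulum. Dnajc28, Dnaja3 and Dnajc19 are lower in both mutant groups and in shRNA replicate 8 than in wild type and shRNA replicates 5 to 7, and Dnajb11 is higher in both mutant groups than in wild type.

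Members of the endoplasmic reticulum lumen were higher in untreated mutants for 4 of 8 genes, with 0 lower and a median log2 difference of 0.33, where 12% of all genes were higher. Without replicate 8 the count was the same, against 18.9% of all genes. In control-virus mutants 1 of 8 was higher, against 12.6% of all genes, and 2 of 8 without replicate 8, against 19.8%. The control-virus counts were thus close to the shares of all genes. Over all libraries with FPKM as deposited none of the 8 passed as higher in either group, and none of the called differences changed sign. Dnajb11, a J-domain partner of BiP, averaged 87.6 ± 3.5 aligned FPKM in untreated mutants and 89.4 ± 7.5 in control-virus mutants, against 63.1 ± 5.8 in wild type (SD, n = 3 each), and rose by 0.47 and 0.50 (adjusted p = 0.0119 and 0.0105). Dnajc3, another BiP partner that also inhibits the kinases of translation initiation, had 52.2, 49.3 and 42.8 in untreated mutants and 38.2, 37.2 and 37.1 in control-virus mutants, against 32.3, 33.8 and 27.5 in wild type. It rose by 0.61 ± 0.11 in untreated mutants (adjusted p = 0.00591), and its rise of 0.26 in control-virus mutants missed the threshold (adjusted p = 0.0882) although no library overlapped. Hsp90b1, the Hsp90 of the reticulum, had 382, 483 and 351 in untreated mutants against 265, 323 and 298 in wild type (log2 0.45 ± 0.15, adjusted p = 0.0481). Hspa5, which encodes BiP itself, had 598, 644 and 498 in untreated mutants and 465, 564 and 487 in control-virus mutants, against 524, 593 and 573 in wild type. Its ranges overlapped, with a log2 difference of 0.04 ± 0.19 in untreated mutants.

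The promoters of Hspa5, Hsp90b1 and Dnajc3 are shown because these 3 members hold the endoplasmic reticulum stress element yet differed in response. They are the 250 bases before the RefSeq start on GRCm38.p6, with the element CCAAT, 9 bases of any kind and CCACG in capitals on either strand. Hspa5 lies at chr2:34771840-34772089 on the plus strand, Hsp90b1 at chr10:86705445-86705694 on the minus strand and Dnajc3 at chr14:118937682-118937931 on the plus strand.
Hspa5: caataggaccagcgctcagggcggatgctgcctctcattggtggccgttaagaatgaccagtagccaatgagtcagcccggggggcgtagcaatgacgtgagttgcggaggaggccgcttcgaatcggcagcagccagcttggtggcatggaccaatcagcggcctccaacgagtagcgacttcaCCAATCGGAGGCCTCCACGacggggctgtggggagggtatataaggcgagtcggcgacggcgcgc
Hsp90b1: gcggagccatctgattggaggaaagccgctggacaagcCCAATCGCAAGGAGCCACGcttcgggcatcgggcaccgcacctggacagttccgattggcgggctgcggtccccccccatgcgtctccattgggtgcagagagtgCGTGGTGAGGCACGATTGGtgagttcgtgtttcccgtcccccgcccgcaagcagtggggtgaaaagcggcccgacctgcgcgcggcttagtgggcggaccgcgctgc
Dnajc3: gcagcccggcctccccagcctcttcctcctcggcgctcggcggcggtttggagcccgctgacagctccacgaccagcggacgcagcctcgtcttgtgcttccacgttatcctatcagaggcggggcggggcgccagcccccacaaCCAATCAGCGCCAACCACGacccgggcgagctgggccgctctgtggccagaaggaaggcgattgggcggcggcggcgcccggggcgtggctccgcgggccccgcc
The element was found before 35 of 27025 genes (0.13%) and, among the 60 members with a sequence, before these 3 (5%).

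Among the remaining classes, Hspa12b, a distant Hsp70 relative of endothelial cells, was lower in both mutant groups. It had 22.2, 18.8 and 26.7 aligned FPKM in untreated mutants and 23.9, 20.8 and 24.9 in control-virus mutants, against 39.0, 35.0 and 38.7 in wild type, and fell by 0.72 and 0.68 (adjusted p = 0.0066 and 0.00908). The 6 endothelial markers summed to 309 to 387 in untreated mutants and 291 to 361 in control-virus mutants, against 423 to 434 in wild type; their part in the Hspa12b difference was not tested. The abundant small members Hspb6 and Hspb7 differed by -0.43 and 0.49 in untreated mutants and by -0.61 and 0.11 in control-virus mutants, none of which passed over all libraries. Of these, Hspb7 passed in untreated mutants (adjusted p = 0.00441) and Hspb6 in control-virus mutants (adjusted p = 0.0117) once replicate 8 was left out.

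The calls against wild type leaned on the number of libraries. Leaving out any 1 of the 6 libraries of a comparison left 5 to 10 members in untreated mutants and 3 to 5 in control-virus mutants. The number of all genes passing fell as well, from 3355 to between 819 and 1892 and from 3150 to between 536 and 1769. The calls on Dnajb11, Dnajc28 and Hspa12b held in every such fit of both comparisons, as did those on Dnajc3 and Dnajc30 in untreated mutants. All 16 and all 11 differences kept their sign.

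In the libraries labelled shRNA, all 3 Hsp110 members and both cytosolic Hsp90 members fell against mutant hearts with the control virus. Over all libraries 24 of 66 members passed, 7 higher and 17 lower, or 36.4% against 24.1% of all genes. Lower were 25.8% of members against 12.2% of all genes, and higher were 10.6% against 11.9%. Without replicate 8, 41 members passed, 21 higher and 20 lower, or 62.1% against 48.1%. Against untreated mutants 29 members passed, 10 higher and 19 lower, or 43.9% against 29.1%, with 28.8% of members lower against 13.1% of all genes. Without replicate 8 this comparison gave 41 members, 18 higher and 23 lower, or 62.1% against 49.4%. The 2 comparisons share the shRNA libraries. Fitted on the compared groups alone, with replicate 8 in, 0 members passed against the control virus (30 at an unadjusted p under 0.05) and 8 against untreated mutants, all 8 lower. In these fits 31 and 390 of the 12980 genes passed. Against the control virus the groups did not overlap in 22 members and 21.1% of all genes, and without replicate 8 in 45 members and 56.6%. Against untreated mutants they did not overlap in 25 members and 24.6% of all genes, and without replicate 8 in 44 members and 55.7%.

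The split of higher and lower calls rested on the alignment. With FPKM as deposited, 28 members were higher and 3 lower against the control virus, and 37 were higher and 5 lower against untreated mutants. On that scale 4545 and 7113 of the 12980 genes passed in either direction. Dnajb2, Dnajb11 and Dnajc14 then changed sign in the first comparison, and Dnajb1, Dnajb11, Dnajc2, Dnajc3, Dnajc14, Hspa4, Hspa13 and Hspb7 in the second. Hsp90aa1, Hspa1l and Hsph1 were the 3 members lower on both scales in the first comparison, and Hspa1a and Hspa1b joined them in the second. Without replicate 8 the deposited scale gave 23 members higher and 6 lower against the control virus. Against untreated mutants it gave 33 higher and 7 lower. Of the 12980 genes, 5113 and 6861 passed in these fits. Sex was not separable from this comparison within the groups, since shRNA replicates 5 to 7 were male and the control-virus mutants female. With sex as a covariate 0 members passed against the control virus (23 at an unadjusted p under 0.05), and 31 when replicate 8 was also left out, 11 higher and 20 lower. Of all genes, 24 and 3843 passed in these fits. In the first, the sex term took in the gap between replicate 8 and replicates 5 to 7. In the second it rested on the untreated and wild-type hearts alone, so neither fit separates sex from this comparison. Against untreated mutants, 2 of which were male, 31 members passed with the covariate, as did 4148 of all genes.

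Hsph1, the Hsp110 that exchanges nucleotide on Hsp70 and itself holds unfolded proteins, fell furthest against the control virus over all libraries but for Hspa1l. It had 37.7, 49.9 and 53.7 aligned FPKM in shRNA replicates 5 to 7 and 169 in replicate 8, against 253, 250 and 251 in control-virus mutants and 245, 275 and 224 in untreated mutants. All shRNA libraries lay below both mutant groups, and replicate 8 lay nearest to them. The log2 difference was -1.95 ± 0.38 from the control virus (adjusted p = 0.0124) and -1.92 ± 0.38 from untreated mutants (adjusted p = 0.00667). Without replicate 8 these were -2.41 ± 0.17 and -2.38 ± 0.17, or 5.30-fold and 5.21-fold lower. Its relatives Hspa4l and Hspa4, also nucleotide exchange factors, fell by 0.88 and 0.53 against the control virus (adjusted p = 0.0223 for each) and by 1.18 and 0.70 against untreated mutants (adjusted p = 0.00593 and 0.00627), where Hspa4 changed sign with FPKM as deposited. Hspa4l had 48.0, 34.2 and 47.5 in shRNA replicates 5 to 7 and 84.0 in replicate 8, against 102, 93.9 and 87.1 in control-virus mutants.

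Hsp90aa1 had 84.9, 90.3 and 87.1 aligned FPKM in shRNA replicates 5 to 7 and 386 in replicate 8, against 483, 522 and 427 in control-virus mutants and 522, 686 and 477 in untreated mutants. Replicate 8 was far above the other shRNA libraries and close to the mutant groups. The log2 difference was -1.90 ± 0.43 from the control virus (adjusted p = 0.0169) and -2.12 ± 0.43 from untreated mutants (adjusted p = 0.00747), and -2.43 ± 0.17 and -2.65 ± 0.17 without replicate 8. Hsp90ab1, the constitutive form, had 1802, 1832 and 1775 in shRNA replicates 5 to 7 and 2530 in replicate 8, against 3102, 2896 and 3592 in control-virus mutants and 3505, 3205 and 3324 in untreated mutants. It fell by 0.70 ± 0.17 and 0.77 ± 0.17 (adjusted p = 0.0206 and 0.0102), or 1.62-fold and 1.70-fold, with no overlap.

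Hspa1l had the largest differences of any member from both mutant groups. It had 6.71, 7.65 and 8.80 aligned FPKM in shRNA replicates 5 to 7 and 35.9 in replicate 8, against 60.3, 53.1 and 47.6 in control-virus mutants and 84.9, 73.5 and 65.7 in untreated mutants. The log2 difference was -2.13 ± 0.42 and -2.60 ± 0.42 (adjusted p = 0.0124 and 0.00302), and -2.65 ± 0.16 and -3.12 ± 0.16 without replicate 8, or 6.27-fold and 8.68-fold lower. Hspa1a had 29.9, 22.5 and 18.6 in shRNA replicates 5 to 7 and 23.1 in replicate 8, against 60.4, 26.0 and 56.6 in control-virus mutants and 114, 84.8 and 71.4 in untreated mutants. Here replicate 8 sat with its group. It fell by 1.88 ± 0.36 against untreated mutants (adjusted p = 0.00587) and differed by -0.92 ± 0.36 from control-virus mutants (adjusted p = 0.0789), whose replicate 2 lay within the shRNA range. Hspb1 had 198, 263 and 215 in shRNA replicates 5 to 7 and 398 in replicate 8, against 539, 597 and 712 in control-virus mutants and 657, 525 and 747 in untreated mutants. It fell by 1.24 ± 0.22 and 1.30 ± 0.22 (adjusted p = 0.01 and 0.00367).

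**Figure D3:**
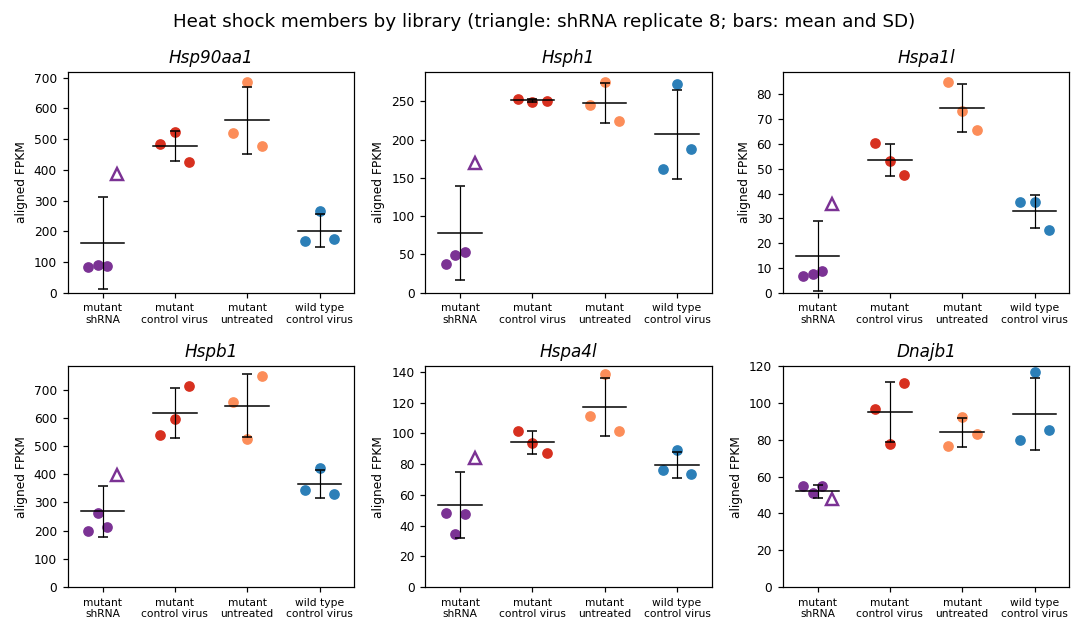
Points are single libraries of 6 cytosolic members, with aligned FPKM on the vertical axis from 0 and the 4 groups along the horizontal axis. In Hsp90aa1, Hsph1 and Hspa1l the shRNA replicates 5 to 7 lie below every other library, while replicate 8 lies within or near the range of the mutant or wild-type hearts; in Dnajb1 all 4 shRNA libraries lie below the others.

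Among the J-domain proteins of the cytosol, Dnajb1, Dnaja1, Dnaja4 and Dnajb4 fell. Their relatives Dnaja2, Dnajb5 and Dnajb6, named after their values were seen, differed by 0.24, 0.42 and -0.11 from the control virus and did not pass over all libraries. Without replicate 8, Dnaja2 and Dnajb5 passed as higher than with the control virus. They averaged 271 and 99.6 aligned FPKM in shRNA replicates 5 to 7, against 222 and 65.3 in control-virus mutants. Dnajb1 had 54.6, 51.2 and 54.8 aligned FPKM in shRNA replicates 5 to 7 and 47.6 in replicate 8, against 96.7, 77.9 and 111 in control-virus mutants and 76.6, 92.3 and 83.1 in untreated mutants. It fell by 0.84 ± 0.15 and 0.68 ± 0.15 (adjusted p = 0.00974 and 0.0089), the second of which changed sign with FPKM as deposited. The groups did not overlap, and replicate 8 was the lowest library of all. Dnaja1, Dnaja4 and Dnajb4 fell by 0.78, 0.74 and 0.57 against the control virus (adjusted p = 0.0246, 0.00962 and 0.0383) and by 1.05, 0.95 and 1.10 against untreated mutants (adjusted p = 0.00676, 0.00169 and 0.00303). Of the 38 J-domain members tested, 5 were higher and 8 lower against the control virus, where 11.9% of all genes were higher and 12.2% lower. Without replicate 8, 15 were higher and 8 lower, where 24.3% of all genes were higher and 23.8% lower.

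The promoters of Hsph1, Hspb1 and Hspa1a are shown because these members of 3 classes were lower in the shRNA libraries than in untreated mutants and hold 1 or 2 short heat shock elements. They are the 250 bases before the RefSeq start on GRCm38.p6, with each run of GAANNTTC or TTCNNGAA in capitals. Hsph1 lies at chr5:149636337-149636586 on the minus strand, Hspb1 at chr5:135887669-135887918 on the plus strand and Hspa1a at chr17:34972157-34972406 on the minus strand.
Hsph1: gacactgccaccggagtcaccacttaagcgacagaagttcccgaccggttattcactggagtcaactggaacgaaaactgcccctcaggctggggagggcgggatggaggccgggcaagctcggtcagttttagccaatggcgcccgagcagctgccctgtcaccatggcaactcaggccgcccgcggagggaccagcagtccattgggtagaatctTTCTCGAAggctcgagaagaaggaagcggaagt
Hspb1: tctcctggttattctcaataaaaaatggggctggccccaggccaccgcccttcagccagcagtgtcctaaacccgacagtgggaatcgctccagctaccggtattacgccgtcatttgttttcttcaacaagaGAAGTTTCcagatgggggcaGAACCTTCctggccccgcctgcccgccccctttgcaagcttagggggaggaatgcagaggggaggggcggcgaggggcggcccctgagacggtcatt
Hspa1a: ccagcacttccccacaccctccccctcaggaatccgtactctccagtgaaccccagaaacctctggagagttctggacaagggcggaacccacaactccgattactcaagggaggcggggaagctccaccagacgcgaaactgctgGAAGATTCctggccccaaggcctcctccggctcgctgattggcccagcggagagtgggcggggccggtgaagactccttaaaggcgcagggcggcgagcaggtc
This short element of 2 units occurs before 14.5% of 27025 genes and before 14 of the 60 members with a sequence (23.3%). The longer element of 3 units lies in none of these 3 windows.

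Of the 9 mitochondrial members, 5 were higher in the shRNA libraries than in untreated mutants and 0 lower (median log2 difference 0.69), where 16% of all genes were higher. Without replicate 8, 7 were higher (median 0.84), against 25.3% of all genes, and Hspa9 of the 7 changed sign with quantile normalization. Against the control virus 2 were higher and 1 lower, where 11.9% of all genes were higher, and without replicate 8, 6 were higher and 1 lower, against 24.3%. Dnajc28 had 57.1, 48.9 and 55.6 aligned FPKM in shRNA replicates 5 to 7 and 24.4 in replicate 8, against 16.7, 21.4 and 21.8 in control-virus mutants and 25.6, 23.2 and 20.0 in untreated mutants. Replicate 8 lay with the untreated mutants. Dnajc28 rose by 1.12 ± 0.24 and 0.92 ± 0.24 (adjusted p = 0.0149 and 0.0166), and by 1.39 ± 0.12 and 1.20 ± 0.12 without replicate 8. Dnajc19 had 83.6, 112 and 110 in shRNA replicates 5 to 7 and 36.8 in replicate 8, against 50.3, 50.6 and 42.1 in control-virus mutants and 36.3, 35.3 and 32.3 in untreated mutants. It rose by 1.16 ± 0.29 against untreated mutants (adjusted p = 0.0153), and its difference of 0.72 from control-virus mutants passed only without replicate 8 (adjusted p = 0.088 with it and 1.8e-05 without). Hspe1 was the one of the 9 that was lower than with the control virus, with 170, 277 and 259 in replicates 5 to 7 and 279 in replicate 8, against 452, 446 and 440 in control-virus mutants (log2 -0.88 ± 0.18, adjusted p = 0.0137). Its difference from untreated mutants did not pass (-0.36 ± 0.18, adjusted p = 0.15).

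Outside the mitochondrion, Hspa12b, Hspb3, Dnajc9 and Dnajc7 rose against both mutant groups. Hspa12b had 33.0, 32.9 and 34.3 aligned FPKM in shRNA replicates 5 to 7 and 27.6 in replicate 8, all above both mutant groups, and rose by 0.45 and 0.49 (adjusted p = 0.026 and 0.0147). Hspb3, a small heat shock protein of muscle, rose by 0.53 and 0.52 (adjusted p = 0.0267 and 0.0227). Dnajc9, a co-chaperone of histones, rose by 0.55 and 0.66 (adjusted p = 0.0227 and 0.00916). Dnajc7, a co-chaperone that binds both Hsp70 and Hsp90, rose by 0.52 and 0.55 (adjusted p = 0.04 and 0.0277). Over all libraries Dnajc25 rose against the control virus alone (0.48, adjusted p = 0.026) and Dnajc4 against untreated mutants alone (0.49, adjusted p = 0.0445). Hspb6, which regulates cardiac contraction, had 1453, 1821 and 1385 in shRNA replicates 5 to 7 and 884 in replicate 8, against 810, 1152 and 953 in control-virus mutants, and passed only without replicate 8 (log2 0.68 ± 0.17, adjusted p = 0.005). Hspa5 had 701, 725 and 820 in shRNA replicates 5 to 7 and 462 in replicate 8, against 465, 564 and 487 in control-virus mutants and 598, 644 and 498 in untreated mutants. It likewise passed only without replicate 8, by 0.57 and 0.37 (adjusted p = 0.00135 and 0.0168), and the second difference changed sign with quantile normalization. Of the 8 members of the reticulum lumen, 0 were higher and 1 lower (Dnajb11) than with the control virus. Of all genes 11.9% and 12.2% were. Without replicate 8, 2 were higher and 2 lower, against 24.3% and 23.8%. In the comparison with untreated mutants 0 were higher and 3 lower (Dnajb11, Dnajc3 and Hspa13), against 16% and 13.1%. Without replicate 8, 1 was higher and 4 lower, against 25.3% and 24.1%. The calls over all libraries changed sign with FPKM as deposited.

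Leaving out 1 library other than shRNA replicate 8 left 7 to 8 members against the control virus. It left 17 to 23 against untreated mutants, where the fewest came without untreated replicate 10. The number of all genes passing fell as well, from 3126 to between 521 and 773 and from 3777 to between 1684 and 2518. The calls that held in every such fit were 6 against the control virus (Dnaja4, Dnajb1, Hspa1l, Hspb1, Hspe1 and Hsph1, all lower). Against untreated mutants 17 held, among them Hsp90aa1, Hsp90ab1, Hspa1a, Hspa1b, Hspa4 and Hspa4l. All 24 and all 29 differences kept their sign, and once replicate 8 was left out 36 and 32 of the 41 calls held when a further library was removed.

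Against wild-type hearts with the control virus, 0 of 66 members passed over all 4 shRNA libraries by limma (16 at an unadjusted p under 0.05, 15 of them lower), where 0.0847% of all genes passed, 0.0308% higher and 0.0539% lower. Without replicate 8, 13 members passed, 2 higher and 11 lower, against 5.62% of all genes. The ranges of the groups did not overlap in 12 members and 11.5% of all genes, and without replicate 8 in 32 members and 30.1%. Lower were 16.7% of the members against 2.47% of all genes, and higher 3.03% against 3.15%. The 11 were Hsph1, Hspa1l, Hsp90aa1, Hspa4l, Dnajb1, Dnaja1, Hspb1, Hsp90ab1, Dnaja4, Hspa4 and Hspb8, all of which act in the cytosol or nucleus. They comprised all 3 Hsp110 members, both cytosolic Hsp90 members, 1 of 11 Hsp70 members, 2 of 7 small members and 3 of 38 J-domain members. The median log2 difference over all 66 members was -0.0029.

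Hsph1 lay at 37.7, 49.9 and 53.7 aligned FPKM in shRNA replicates 5 to 7 and 169 in replicate 8, against 162, 272 and 187 in wild type. Without replicate 8 the log2 difference was -2.09 ± 0.17 (adjusted p = 5.61e-05), or 4.27-fold lower, and with it -1.63 ± 0.38 (adjusted p = 0.12). Hspa1l lay at 6.71, 7.65 and 8.80, with 35.9 in replicate 8, against 36.8, 36.5 and 25.3 in wild type, and was 3.85-fold lower without replicate 8 (-1.94 ± 0.16, adjusted p = 5.61e-05). Replicate 8 fell within the wild-type range in both genes. Hsp90aa1 was 2.25-fold lower in replicates 5 to 7 (-1.17 ± 0.17, adjusted p = 0.00276), whereas its 386 in replicate 8 lay above all 3 wild-type values of 167, 265 and 175.

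The smaller differences, again without replicate 8, were -0.88 for Hspa4l, -0.78 for Dnajb1, -0.72 for Dnaja1 and -0.69 for Hspb1. Those for Hsp90ab1, Dnaja4, Hspa4 and Hspb8 were -0.60, -0.53, -0.41 and -0.38 (adjusted p between 0.00595 and 0.0484 for all of these). Dnajb1 differed by -0.82 also with replicate 8, where it missed the threshold (adjusted p = 0.0597). Hspb8, the partner of Bag3 in clearing damaged sarcomere proteins, had 758, 834 and 679 in shRNA replicates 5 to 7 and 927 in replicate 8, against 929, 1007 and 1017 in wild type. Hspa1a and Hspa1b differed by -1.26 and -1.42 from wild type in replicates 5 to 7 and did not pass (adjusted p = 0.0759 and 0.0902), with wild-type replicate 3 at 112 and 152 and the other wild-type libraries between 40.4 and 47.5. The 2 higher members without replicate 8 were Dnajc19 (0.51 ± 0.12, adjusted p = 0.0307) and Dnajc9 (0.48 ± 0.11, adjusted p = 0.0229). With FPKM as deposited and replicate 8 left out, Hsph1 and Hspa1l alone passed, both lower, and none of the 13 changed sign. On that scale 218 of the 12980 genes passed. With quantile normalization 11 were lower and 1 higher, where 550 of all genes passed. Leaving out 1 more library left 6 to 9 lower members, where 116 to 255 of all genes were lower. Dnajb1, Hsp90aa1, Hsp90ab1, Hspa1l, Hspa4l and Hsph1 passed in each of these 6 fits. With sex as a covariate and replicate 8 left out, 11 were lower and 1 higher, where 694 of all genes passed.

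**Figure D4:**
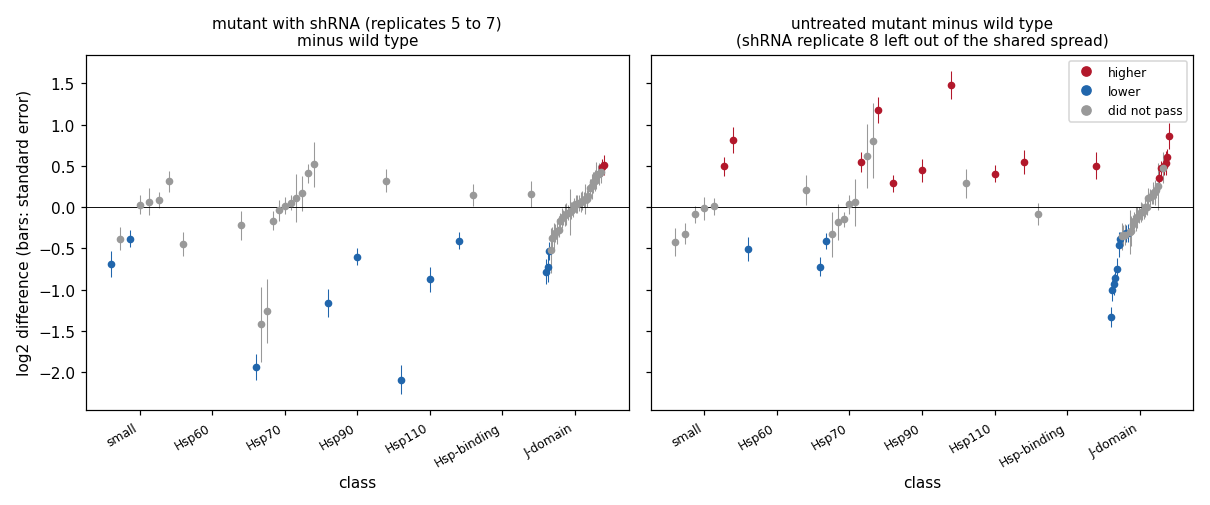
Each point is a tested member, placed by class, with its log2 difference and standard error on the vertical axis; the left panel sets shRNA replicates 5 to 7 against wild type and the right panel untreated mutants against wild type, both with shRNA replicate 8 left out. On the left 11 members are lower, among them all 3 Hsp110 and 2 of 3 Hsp90 members, and 2 J-domain members are higher; on the right all 3 Hsp90 members and 2 of 3 Hsp110 members are higher, of which Hsp90ab1 changes sign with FPKM as deposited.

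Between mutant hearts with and without the control virus 0 of 66 members passed by limma, where 0% of all genes did, and 7 had an unadjusted p under 0.05. Without replicate 8 the count was again 0, where 0.0462% of all genes passed, with 11 at an unadjusted p under 0.05. The widest gaps were in Hspa1a, with 60.4, 26.0 and 56.6 aligned FPKM with the virus against 114, 84.8 and 71.4 without (log2 -0.97 ± 0.39, adjusted p = 0.442), and Hspa1b (-0.86 ± 0.46, adjusted p = 0.554). All 3 hearts with the virus were female and 2 of the 3 without it male.

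Several members passed in no comparison over all libraries. Hspb2, a small heat shock protein of muscle, had 219, 235, 210 and 198 in the shRNA libraries and between 182 and 233 in the other 9. Hspa8, the constitutive Hsp70, had 210, 538, 503 and 591 in shRNA replicates 5 to 8, against 296, 342 and 362 in control-virus mutants, 370, 404 and 338 in untreated mutants and 406, 414 and 267 in wild type, and passed in none. Its shRNA replicate 5 was the lowest of all 13 libraries, and the gene has many processed pseudogenes. Dnaja2, Dnajb6, Dnajc5, Dnajc10, Hspa2 and Hspa14 likewise passed in no comparison over all libraries.

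The partners of these chaperones that carry other names were read from lists drawn up with earlier results of these data known. Of 24 co-chaperones of Hsp70 and Hsp90, 5 were lower than wild type and 0 higher in shRNA replicates 5 to 7, where 2.47% of all genes were lower. None passed with replicate 8 or with FPKM as deposited, where all 5 kept their sign. Against the control virus 9 were higher and 9 lower without replicate 8, where 24.3% of all genes were higher and 23.8% lower. With it 1 was higher and 8 lower, against 11.9% and 12.2%. The 5 lower than wild type were St13, which steadies Hsp70 in its ADP-bound form, Stip1, which bridges both chaperones, Unc45b, the myosin-folding partner of Hsp90, and Ahsa1 and Ahsa2, activators of its ATPase, the last 2 named after their values were seen. Stip1 had 124, 130 and 122 aligned FPKM in shRNA replicates 5 to 7 and 203 in replicate 8, against 251, 310 and 253 in control-virus mutants, 298, 289 and 249 in untreated mutants and 182, 269 and 213 in wild type. Without replicate 8 it differed by -1.10 from the control virus (adjusted p = 3.13e-05) and by -0.79 from wild type (adjusted p = 0.00668). Unc45b had 184, 153 and 155 in shRNA replicates 5 to 7 and 206 in replicate 8, against 273, 320 and 240 in wild type (-0.75 without replicate 8, adjusted p = 0.00569).

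Cryab, the abundant small heat shock protein of the heart also known as alpha B-crystallin, had 3353, 4087 and 3747 aligned FPKM in shRNA replicates 5 to 7 and 5372 in replicate 8, against 5311, 6757 and 5728 in control-virus mutants and 4809, 6186 and 5186 in wild type. It differed by -0.67 from the control virus and by -0.53 from wild type without replicate 8 (adjusted p = 0.00131 and 0.0391). The cytosolic chaperonin, which folds actin and tubulin, had 6 of 8 subunits lower and 0 higher than with the control virus in shRNA replicates 5 to 7, where 23.8% of all genes were lower, and 4 lower with replicate 8, against 12.2%. With FPKM as deposited none passed in either fit, and Cct5, Cct7 and Cct8 of the 4 and Tcp1 of the 6 changed sign. Of the 6 only Cct3 was also below wild type (-0.62, adjusted p = 0.0047 without replicate 8). Of the transcripts of heat shock factors, none of the 4 tested passed in either mutant group against wild type. Hsf1 had an average of 32.8 in shRNA replicates 5 to 7 against 41.1 in wild type (-0.32, adjusted p = 0.161 without replicate 8). Of 11 nucleotide exchange factors, a list that also holds the member Hspbp1, 4 were higher and 1 lower than with the control virus without replicate 8, where 24.3% of all genes were higher, and 2 and 1 with it, against 11.9%. Of 5 prefoldin subunits 3 were higher and 0 lower without replicate 8, and none passed with it, beside the same shares of all genes.

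Of 6 mitochondrial chaperones and proteases with other names, 3 were lower in untreated mutants than in wild type, against 13.8% of all genes, and 5 without replicate 8, against 20.8%, with 0 higher in either fit. In control-virus mutants 1 was lower, against 11.7% of all genes, and 5 lower and 1 higher without replicate 8, against 19.9% of all genes lower. Clpp, the mitochondrial protease subunit, had 131, 143 and 133 aligned FPKM in shRNA replicates 5 to 7 and 60.4 in replicate 8, against 61.9, 59.9 and 75.6 in control-virus mutants, 63.8, 50.7 and 59.8 in untreated mutants and 108, 103 and 106 in wild type. Replicate 8 lay with the mutant hearts, and the mutant groups lay below every wild-type library. Of 13 folding genes of the reticulum, 7 were higher and 0 lower in untreated mutants than in wild type, and 8 higher and 1 lower without replicate 8, where 12% and 18.9% of all genes were higher. In control-virus mutants 8 were higher and 1 lower, and 9 higher and 1 lower without replicate 8, where 12.6% and 19.8% of all genes were higher. Over all libraries with FPKM as deposited, 0 were higher and 1 lower in untreated mutants and 1 higher and 1 lower in control-virus mutants, and none of the called genes changed sign. Without replicate 8, P4hb changed sign on that scale in untreated mutants. Sdf2l1, which works with BiP, rose most among them: it averaged 27.4 ± 2.5 in untreated mutants, against 10.1 ± 1.8 in wild type (SD, n = 3 each), a log2 difference of 1.37 (adjusted p = 0.000104 without replicate 8).

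Among the 60 members with a RefSeq promoter sequence, the short heat shock element was counted for the members lower than wild type in shRNA replicates 5 to 7. It lay before 4 of the 9 of them with a sequence (Dnaja1, Dnaja4, Hspb1 and Hsph1), or 44.4%, and before 10 of the 45 other tested members with one, or 22.2%, while 14.5% of all genes held it. Dnajb1, Hspa1l, Hspa4, Hspa4l and Hspb8 did not hold it in these windows. The element of 3 units lay before 0 of the 9. No test was run on these shares, since the members were grouped by their difference from wild type.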

How the data were processed

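PolyA RNA of 13 mouse hearts had been sequenced as paired reads, per the labels' protocols. The deposited values are FPKM in 1 table, and FastQC 0.11.2, STAR 2.40, Cufflinks 2.2.1, Cuffdiff and mouse build mm9 are named, without roles, in the submitters' processing notes. The sources used here do not give the annotation, the strand setting or any scaling between columns, and read numbers are unknown, so no counting error is given. The small RNA table was not used here. An exact 0 may be a failed estimate. No tested member had one.

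Each library was divided by 2 to the power of its median log2 difference over the genes above 0 in every library. One model of the 4 groups was fitted on log2(aligned FPKM + 1) with limma 3.58.1 in R 4.3.3 (lmFit, eBayes with trend, two-sided), over the 12980 genes that averaged 1 FPKM or more, with Benjamini-Hochberg adjustment over all of them and a threshold of 0.05. Fold changes are on that log2 scale, which understates the change of low genes. The 6 comparisons share groups. Shared fragments of near-identical genes and overlapping antisense genes cannot be separated in these values. The test was checked on simulated data.

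The members, the lists of partners and markers and the compartment sets were chosen with earlier results of these data known. Values in every library are given for the 16 members with the smallest adjusted p and a fixed set of well-known members, 26 in all. Dnajc19, Clpp, Sdf2l1, Hspb2 and the other genes given in full beside them were named after their values were seen. The symbols matched 60 of the 74 members to RefSeq promoter sequences on GRCm38.p6. Alternatives were FPKM as deposited, quantile normalization, a pseudocount of 0.1, a minimum mean of 5 FPKM or none, a fit on the compared groups alone, sex as a covariate (male if Ddx3y was above 5 FPKM), a replicate block, and each library left out in turn. Replicate 8 of the shRNA group left out together with another scale was added after seeing the data.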

Additional observations from a re-analysis of the deposited data

Results flagged for a closer look

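In the shRNA group of 4, 7 of the 26 members given in every library held a value that stood far from the other 3 (a gap over range above Dixon's 95% critical value for 4 samples, on the log2 scale). Chance flags about 5% of groups. Replicate 8 was high in Hsp90aa1 (gap ratio 0.96), with 386 aligned FPKM beside 84.9 to 90.3 in the others, in Hsp90ab1 (0.911), with 2530 beside 1775 to 1832, and in Hspa1l (0.846), with 35.9 beside 6.71 to 8.80. It was low in Hspa9 (0.869), with 569 beside 738 to 767. In these 4 genes replicate 8 lay on the side of the control-virus and untreated mutants. It was also the one female library of the 4, and the human transgene row was listed at 0 in it.

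Replicate 5 was low in Hspa8 (0.843), with 210 beside 503 to 591, and in Hspe1 (0.847), with 170 beside 259 to 279. Replicate 7 was low in Hspa1b (0.889), with 16.3 beside 29.7 to 32.0.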

How the results depend on the processing

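Pseudocount 0.1, the stricter minimum and no minimum kept the count of members called within 1.5 times in all 6 comparisons. For untreated mutant against wild type, 16 members became 26 on the compared groups alone, 31 with sex as a covariate and without shRNA replicate 8, and 27 with quantile normalization without it; leaving out each library gave 5 to 28. For control-virus mutant against wild type, 11 became 4 with FPKM as deposited, 24 on the compared groups alone, 3 with sex, 20 with sex and without replicate 8, and 26 with quantile normalization without it; leaving out each library gave 3 to 24. For shRNA against control virus, 24 became 0 on the compared groups alone (30 at an unadjusted p under 0.05) and 0 with sex (23), and 38 with quantile normalization without replicate 8; leaving out each library gave 7 to 41. For shRNA against untreated mutant, 29 became 8 on the compared groups alone, and leaving out each library gave 17 to 41. For shRNA against wild type, 0 became 12 with sex and without replicate 8, 2 with FPKM as deposited and 12 with quantile normalization, both without it; leaving out each library gave 0 to 13. Control-virus against untreated mutant gave 0 under these settings, and 0 to 2 when replicate 8 and a further library were left out. The number of all genes called moved too, given here in the same order of settings. For untreated mutant against wild type 3355 became 4897, 5248 and 5198. For control-virus mutant against wild type 3150 became 1233, 5335, 328, 3588 and 5150. For shRNA, 3126 became 31, 24 and 6164 against the control virus, and 3777 became 390 against untreated mutants. Against wild type 11 became 694, 218 and 550. Leaving out each library gave 819 to 5161, 536 to 5149, 521 to 6248, 1684 to 6415 and 0 to 729 genes, in the same order of comparisons.

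For the 26 members given in every library, 1254 of 1586 values under other settings kept their direction and side of the threshold, 104 lost the call, 109 gained it and 6 reversed. All 6 reversals were shRNA against untreated mutant with FPKM as deposited: Dnajc3 at 0.254, Hspa4 at 0.0383, Dnajb1 at 0.0531 and Hspb7 at 0.189, and without replicate 8 Dnajc3 at 0.0804 and Hspb7 at 0.138. These counts set each value against the fit of all libraries. Of the calls made without replicate 8, Hspb8 also changed sign there with FPKM as deposited, and Hspa5, Hspa9 and Hspb6 with quantile normalization. Hsp90ab1 did so with FPKM as deposited in untreated mutants against wild type. Leaving out a library reversed 0 of 1092 values, changed the sign of 36 with no call in either fit, and ended 106 calls. The cause of these changes was not tested.

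The control-virus mutants and the wild type share replicate numbers 2 and 3. With the replicate block on these 4 libraries 14 members passed, 4 higher and 10 lower. Of all genes tested, 3107 passed in this fit. Deviations of same-numbered libraries correlated at -0.18 and -0.11 over genes, so the numbers were not taken to pair hearts. Groups of 3 or 4 hearts and unknown depth limit the precision of all values.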
